A study of Mus musculus with 4 samples.

Results

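Ccl21 is a lymphoid chemokine that the mouse genome carries in several near-identical copies, and Ccr7 encodes its receptor. The 8 genes described here were 7 rows of the deposited table that belong to Ccl21 copies (Ccl21b, Ccl21c, Gm13304, Gm10591, Gm21541, Gm1987 and LOC100041504) and Ccr7, out of 17915 rows in all. They were picked by symbol with knowledge of how they differed between tdTomato+ and ZsGreen+ cells, so that difference is given for them as a description, without a test. All 8 passed the filter on low counts, which kept 13177 genes.

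Bulk RNA sequencing of lung endothelial cells (ECs) gave 4 libraries, 2 labelled tdTomato ECs and 2 labelled ZsGreen ECs, each named a biological replicate. All mice carried Cdh5-CreER, a tamoxifen-inducible Cre driven in endothelium, together with aSMA-LSL-Dre and NR1. Tamoxifen was given 5 times, and transverse aortic constriction (TAC), which per the series text was used to induce lung fibrosis, had lasted 6 weeks. In this system ECs carry ZsGreen and switch to tdTomato after alpha smooth muscle actin (aSMA) has been active, even briefly. No label says whether 2 libraries share a mouse, within a group or across groups, so every p-value measures only the spread between these libraries. No library came from mice without TAC.

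Libraries held 17050673 to 18574737 counts. Acta2, the aSMA gene, stood at 304 and 528 CPM (counts scaled to the TMM-adjusted library size) in tdTomato+ replicates 1 and 2 and at 87.7 and 82.9 CPM in ZsGreen+ replicates 1 and 2. All 10 endothelial identity genes were present in each library, with Pecam1 between 1809 and 2104 CPM and Cdh5 between 1112 and 2422 CPM. Leukocyte and epithelial RNA was present too. The 8 macrophage markers summed to 5339, 2488, 2963 and 618 CPM and the 8 epithelial markers to 432, 520, 271 and 524 CPM in tdTomato+ 1, tdTomato+ 2, ZsGreen+ 1 and ZsGreen+ 2.

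CCL21 is made by lymphatic endothelium, by high endothelial venules and by reticular stroma of lymphoid organs. It sticks to heparan sulfate and forms gradients that draw dendritic cells and T cells carrying CCR7 into lymphatic vessels and lymph nodes. CCL19, the other CCR7 ligand, lacks the long charged tail that holds CCL21 on surfaces. In mice Ccl21a encodes the serine form of the protein, and the copies called Ccl21b and Ccl21c encode the leucine form.

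The copies whose sequences were at hand are so alike that short reads can hardly tell them apart. No sequence of Ccl21c, Gm1987 or LOC100041504 was compared. In GENCODE M21 (GRCm38) each copy has 4 coding exons and a coding length of 402 bases. Transcript sequences were at hand for 4 of the 7 copies, and the coding sequences of Ccl21b, Gm10591, Gm13304 and Gm21541 were identical. Ccl21a, which has no row of that name among those analysed here, differed from them by A84T and T194C, 99.5% identity. Positions count from 1 at the A of the start codon, and the first letter is the base of Ccl21b. The first change lies at the third base of its codon and the other at the second. Coding positions 61 to 220 hold both changes and are shown 5′ to 3′, spliced, with the differing bases in capitals. Those bases are the only coding letters that separate Ccl21a from the 4 copies compared.
Ccl21b: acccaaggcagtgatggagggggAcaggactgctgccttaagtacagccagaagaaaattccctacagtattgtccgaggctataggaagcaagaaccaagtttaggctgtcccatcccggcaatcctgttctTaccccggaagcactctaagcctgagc
Ccl21a: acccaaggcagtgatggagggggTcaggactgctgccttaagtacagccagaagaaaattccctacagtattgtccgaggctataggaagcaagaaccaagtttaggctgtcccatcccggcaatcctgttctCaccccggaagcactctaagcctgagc

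Over the full 870-base transcripts Gm21541 and Ccl21a differed at 6 positions, 1 before the coding part, 2 inside it and 3 after it. The longest identical stretch was 370 bases. A read that covers none of these positions fits both genes equally well.

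The upstream sequence was shared as well. In the RefSeq windows of GRCm38.p6 the 250 bases before the start of Gm21541 differed from those of Gm10591 and of Gm13304 by T143C in each case, and from those of Ccl21a by C141T over 249 aligned bases. Positions count from 1 at the 5′ end of the window of Gm21541, and its base comes first. This window lies at chr4:41903363-41903612 on the + strand and is shown 5′ to 3′ with both differing positions in capitals.
Gm21541: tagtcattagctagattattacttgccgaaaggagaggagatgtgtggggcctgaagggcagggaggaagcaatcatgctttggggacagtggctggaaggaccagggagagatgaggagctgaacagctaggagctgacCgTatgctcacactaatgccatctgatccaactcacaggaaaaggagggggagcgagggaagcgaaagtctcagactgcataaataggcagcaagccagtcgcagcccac

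Of 5 motifs searched on both strands, the ETS core AGGAAG was found in the windows of Gm21541, Gm10591, Gm13304 and Ccl21a. The same letters are in 29.5% of 32817 mouse windows of this length. The TATA letters TATAAA (in 12.4% of all windows), the GATA letters AGATAA (9.99%), the AP-1 letters TGANTCA (6.75%) and the nuclear receptor half-site AGGTCA (14%) were not in these 4 windows. A match is a description of the letters, not a mapped binding site.

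The deposited positions place 4 copies on the assembled chromosome 4 (GRCm38), all on the + strand. Gm21541 spans 41903613 to 41904743, Gm13304 spans 42114787 to 42115917, Ccl21b spans 42255731 to 42256825 and Gm10591 spans 42612123 to 42613253. The gaps between them are 210, 139.8 and 355.3 kb. The other 3, Ccl21c, Gm1987 and LOC100041504, lie on unplaced scaffolds. Symbols are a poor guide to them. GENCODE gives the transcript of Gm1987 the name Ccl21a, that of LOC100041504 the name Ccl21c and that of Ccl21c the name Ccl21b. Ccr7 is a single gene at 99144199 to 99155077 on the minus strand of chromosome 11.

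Each of the 7 Ccl21 copies was lower in tdTomato+ than in ZsGreen+ cells, by 7.34- to 9.4-fold in the fit, and Gm1987 carried most of the signal. Because Ccl21a has no row of its own among those analysed here, reads of that gene may be counted in Gm1987 and the other copies, which cannot be told apart. In all 7 copies both ZsGreen+ libraries exceeded both tdTomato+ libraries, an order that 18.2% of all genes tested share. On the TPM scale (abundance per transcript length, comparable between genes) Gm1987 stood at 798 and 1115 in tdTomato+ replicates 1 and 2 and at 4980 and 11149 in ZsGreen+ replicates 1 and 2. ZsGreen+ 2 was the highest library and both ZsGreen+ libraries lay above both tdTomato+ libraries. Ranked by TPM among all rows, Gm1987 was 228th, 154th and 17th in tdTomato+ 1, tdTomato+ 2 and ZsGreen+ 1, and it ranked 1 in ZsGreen+ 2. Its CPM was 335 and 496 against 2630 and 4925, a log2 fold change of tdTomato+ over ZsGreen+ of -3.18 (SE 0.37, n = 2 per group). In bulk RNA fewer cells of a type and less RNA per cell cannot be told apart.

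LOC100041504 stood at 48.5 and 46.8 CPM in tdTomato+ 1 and 2 and at 358 and 454 CPM in ZsGreen+ 1 and 2. Its tdTomato+ pair was the most even of the copies, the groups did not overlap, and its log2 fold change was -3.09 (SE 0.21). Ccl21b, the copy with a curated symbol on the assembled chromosome, gave 60.7 and 34.8 CPM against 289 and 609 CPM, in the same order. ZsGreen+ 2 was again the highest library, the groups did not overlap, and the log2 fold change was -3.23 (SE 0.43). Ccl21c, Gm13304, Gm10591 and Gm21541 held the same 4 values, 12.4 and 22.9 CPM against 122 and 137 CPM, with a log2 fold change of -2.88 (SE 0.31). Here tdTomato+ 2 was the higher tdTomato+ library and the groups did not overlap.

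**Figure D1:**
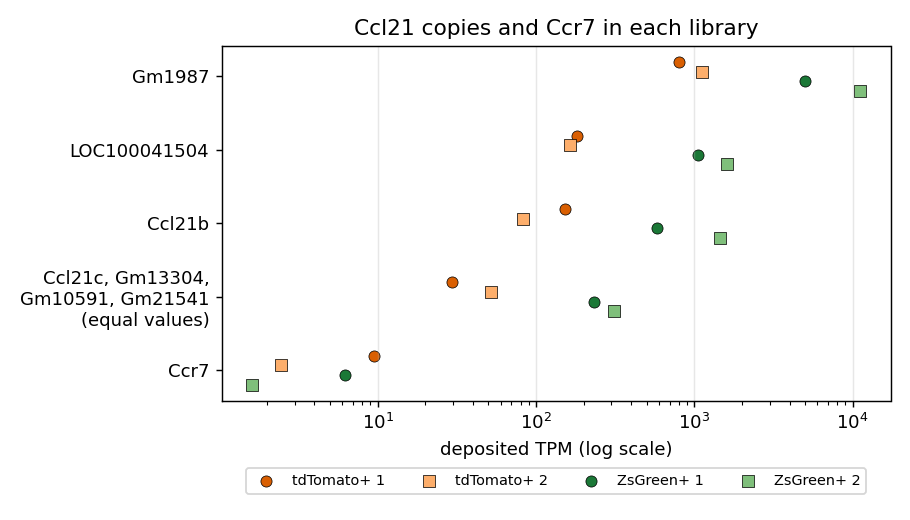
Deposited TPM (log axis) of each Ccl21 copy and Ccr7, with 1 point per library. All ZsGreen+ points of the copies lie to the right of the tdTomato+ points, while for Ccr7 the circles of replicate 1 lie to the right of the squares of replicate 2 in both groups.

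In the quasi-likelihood fit over all genes 6 of the 8 members, all of them copies, had an adjusted p under 0.05, against 40 of 13177 genes, 0.304%, in either direction and 18, 0.137%, lower in tdTomato+ cells. The 6 are themselves among the 40 and the 18, and 4 of them hold equal counts. The members were picked on this comparison, so these counts are given for orientation. Ccl21b and Ccr7 were the others. Without 1 library the log2 fold change of Ccl21b ranged from -3.69 to -2.6, that of Gm1987 from -3.57 to -2.67, that of LOC100041504 from -3.25 to -2.91 and that of the 4 equal rows from -3.37 to -2.5.

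The division of reads among the copies changed little beside the difference in their level. Gm1987 took 67.8% and 74.1% of the summed counts of the 7 rows in tdTomato+ 1 and 2 and 69.8% and 75.4% in ZsGreen+ 1 and 2. Replicate 2 had the larger share in both groups and the groups overlapped. Ccl21b took 12.3% and 5.2% against 7.66% and 9.32%, and LOC100041504 took 9.83% and 7% against 9.5% and 6.95%. Each of the 4 equal rows took 2.51% and 3.42% against 3.25% and 2.09%. No copy had shares in one group that all lay above those of the other.

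**Figure D2:**
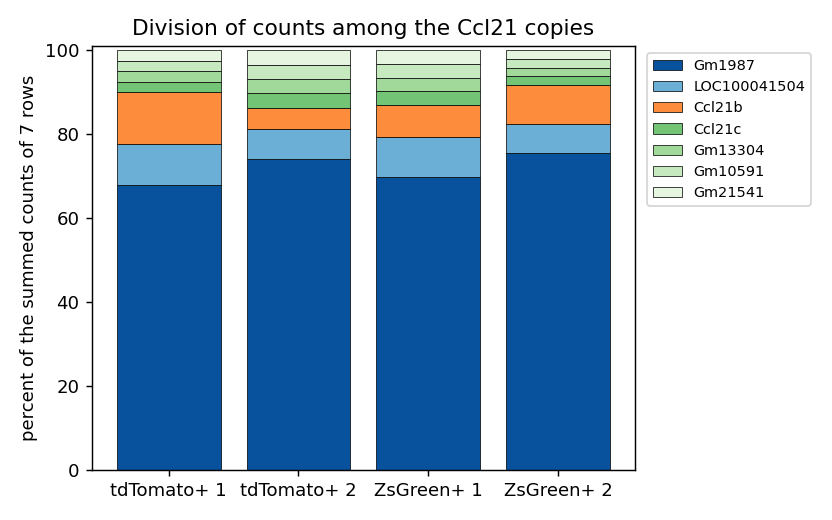
Percent of the summed counts of the 7 Ccl21 rows that each row holds, as stacked bars for the 4 libraries. Gm1987 fills 67.8% to 75.4% of each bar, and the bars of both groups look alike.

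Features of the counts bear on summing the rows. The values are not whole, and Ccl21c, Gm13304, Gm10591 and Gm21541 share all 4 counts (225.01, 436.39, 1934.31 and 2498.05). Of 16758 rows with a count, 1794 share all 4 counts with another row, mostly rows with few counts. At 40 or more counts over the libraries only 4 such patterns remain, covering 10 rows. The counts of the 7 copies together with LOC100041593, a further annotated copy on a scaffold, add up to within 0.02 of a whole number in every library (8968.98, 12750.01, 59542.99 and 119333.98). With the equal rows entered only once the sums lie 0.05 to 0.17 from a whole number. The 7 rows without LOC100041593, which was added after the data were seen, lie 0.01 to 0.39 from a whole number. Whether the equal rows hold portions of a common set of reads or the same reads counted again was not tested. The copies were summed, with a log2 ratio of -3.15, and with the equal rows entered once it was -3.17.

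Summed over the 7 rows the Ccl21 copies gave 493 and 669 CPM in tdTomato+ 1 and 2 and 3766 and 6535 CPM in ZsGreen+ 1 and 2. The lowest ZsGreen+ library was 5.63-fold above the highest tdTomato+ library, and the 2 outermost libraries were 13.2-fold apart. ZsGreen+ 2 exceeded ZsGreen+ 1 by 1.74-fold and tdTomato+ 2 exceeded tdTomato+ 1 by 1.36-fold. The means were 581 ± 124 CPM and 5150 ± 1958 CPM (SD, n = 2 each), 8.86-fold lower in tdTomato+ cells. The copies took 0.0515% and 0.0686% of all counts in tdTomato+ libraries and 0.349% and 0.657% in ZsGreen+ libraries. Only 2 rows, Ccl21b and Ccl21c, carry a Ccl21 symbol, and these alone summed to 73.1, 57.7, 411 and 746 CPM in the same order of libraries.

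LOC100041593 held few reads, with 1.79 and 0 counts in tdTomato+ 1 and 2 and 21.81 and 38.59 counts in ZsGreen+ 1 and 2. Both tdTomato+ libraries lay below 3 counts, so no fold is given. It was higher in both ZsGreen+ libraries, as were the 7 other copies, and in the edgeR fit its adjusted p was 0.201.

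Other genes beside the copies did not pass the test. Within 500 kb of the chromosome 4 copies, or on the same scaffolds, lay 61 further rows, LOC100041593 among them, of which 34 were tested. With edgeR 0 of them were called, 7 had an unadjusted p under 0.05, and DESeq2 called 1, LOC100041593. Their median log2 fold change was -0.15, beside -0.01 over all genes tested. Groups did not overlap in 12 of the 34, of which 9 were lower and 3 higher in tdTomato+ cells. Over all genes tested the shares were 18.2% lower and 19.9% higher. Those in the direction of the Ccl21 copies with the largest differences after LOC100041593 had few reads, namely LOC115489962 (log2 fold change -2.26, SE 0.88), LOC100861727 (-2.14, SE 0.69), LOC100041599 (-2.09, SE 0.66) and Gm29804 (-1.43, SE 0.58). Ccl27a and Ccl27b, chemokine genes on either side of the 4 placed Ccl21 copies, stood at 2.82, 6.37, 4.39 and 3.17 CPM and at 3.29, 3.41, 1.43 and 0.32 CPM in tdTomato+ 1 and 2 and ZsGreen+ 1 and 2. Ccl27b was higher in both tdTomato+ libraries, opposite in direction to the Ccl21 copies, with a log2 fold change of 1.92 (SE 0.74, edgeR adjusted p = 0.519). Il11ra1, an interleukin-11 receptor gene of the same stretch, overlapped between groups at 45.3, 39.1, 47.6 and 29.8 CPM. Vcp, an abundant ATPase gene nearby, gave 456, 413, 449 and 483 CPM.

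Among the genes listed as CCL21 and CCR7 partners, 0 of the 6 tested passed the edgeR test. Groups did not overlap in 2, both lower in tdTomato+ cells, an order that 18.2% of all genes tested share. Pdpn encodes podoplanin, a lymphatic surface protein that binds CCL21. It stood at 15.4 and 6.88 CPM in tdTomato+ 1 and 2 and at 47.6 and 42.9 CPM in ZsGreen+ 1 and 2, a log2 fold change of -2.03 (SE 0.37, edgeR adjusted p = 0.127). Ackr2 is on this list but is a scavenging receptor of inflammatory chemokines on lymphatic endothelium. It gave 80.9 and 118 CPM against 217 and 335 CPM, a log2 fold change of -1.47 (SE 0.28, edgeR adjusted p = 0.143). Both genes were higher in both ZsGreen+ libraries, but by smaller factors than the Ccl21 copies.

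Ackr4, the receptor that removes CCL21 and CCL19, overlapped between groups at 5.94, 9.4, 6.45 and 15.8 CPM. St8sia4, which makes the polysialic acid on CCR7, gave 12, 9.35, 7.4 and 17.1 CPM. Ext1 and Ndst1, enzymes of heparan sulfate synthesis, gave log2 fold changes of -0.31 (SE 0.26) and 0.04 (SE 0.18). Ccl19 had at most 0.726 CPM, with 13.2 counts in tdTomato+ 1 and under 3 counts in each of the other libraries, and was not tested. The Ccl21 sum therefore exceeded Ccl19 in each library, by TPM 1251, 1569, 7541 and 15464 against 2.22, 0.29, 0.19 and 0.27.

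The marker lists of cells that make CCL21 differed in the sign of their medians. Of 16 lymphatic endothelial genes 4 fell by the edgeR test and 0 rose, where 0.137% of all genes tested fell. Of the 16, 10 were lower in both tdTomato+ libraries than in both ZsGreen+ libraries, beside 18.2% of all genes tested. The reverse held for 2, beside 19.9% of all genes tested. These were Foxc2 (12.5 and 8.61 CPM against 6.07 and 1.75 CPM) and Nrp2 (203 and 185 CPM against 137 and 170 CPM). The median log2 fold change of the list was -1.84. Reln, a secreted glycoprotein of lymphatic vessels, stood at 4.29 and 5.72 CPM against 28.9 and 63 CPM, a fall of 9.17-fold (log2 fold change -3.2, SE 0.41, edgeR adjusted p = 0.0465). Mmrn1, multimerin, gave 15.8 and 11.7 CPM against 74.5 and 161 CPM, a fall of 8.6-fold (log2 fold change -3.1, SE 0.39, edgeR adjusted p = 0.0432). Thy1 and Fxyd6 also fell, with log2 fold changes of -2.96 (SE 0.24) and -2.39 (SE 0.29). Those of Reln and Mmrn1 were close in size to the difference of the Ccl21 copies. With the copies entered as 1 row, Reln, Mmrn1 and Fxyd6 no longer passed the edgeR threshold, and without tdTomato+ 2 none of the 4 did.

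Of the genes that did not pass, Nts, which encodes neurotensin, had the largest difference of the list, at 0.33 and 0.42 CPM in tdTomato+ 1 and 2 and 4.37 and 7.83 CPM in ZsGreen+ 1 and 2 (log2 fold change -4, SE 0.59, edgeR adjusted p = 0.0715). Ptx3 and Tbx1 followed with log2 fold changes of -2.82 (SE 0.57) and -2.65 (SE 0.42). Prox1, Flt4 and Lyve1 had smaller differences or none in that direction. Prox1, the transcription factor of lymphatic identity, gave 4.13 and 3.78 CPM against 6.9 and 17.9 CPM, and Flt4, the receptor of VEGF-C, gave 164 and 128 CPM against 319 and 281 CPM. Neither passed the edgeR test, with adjusted p = 0.34 and 0.144. Lyve1, a hyaluronan receptor, overlapped between groups at 503, 840, 407 and 593 CPM. The 16 genes summed to 1562 and 2002 CPM in tdTomato+ and to 1897 and 2087 CPM in ZsGreen+ libraries, and Lyve1 and Sox18 made up most of that sum. No gene of this list was at 0 in all libraries. How much the number of lymphatic cells in each library contributed to the Ccl21 difference was not tested.

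High endothelial venule genes were, by their median, higher in tdTomato+ cells. The median log2 fold change was 1.02 over the 9 tested, of which 1 rose and 0 fell by the edgeR test. Over all 13177 genes tested 22 rose. Vcam1, an adhesion molecule for lymphocytes, gave 294 and 276 CPM against 83.2 and 58.8 CPM, so its groups did not overlap (log2 fold change 2, SE 0.22, edgeR adjusted p = 0.0304). Glycam1, Chst4 and Madcam1, which mark these venules most closely, had at most 0.569 CPM in any library. Sele gave 577 and 471 CPM against 211 and 150 CPM, an edgeR adjusted p of 0.0832. The call of Vcam1 was lost without either tdTomato+ library. For reticular stroma 0 of 8 tested genes passed, and Col1a1, a collagen chain, stood at 65.4 and 144 CPM in tdTomato+ 1 and 2 and at 23.2 and 46.3 CPM in ZsGreen+ 1 and 2.

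Lymphotoxin beta receptor signalling through non-canonical NF-kappaB is a known inducer of Ccl21 in lymphoid stroma. In this list 0 of 11 tested genes passed the edgeR test, and the median log2 fold change was 0.34. Ltbr, the receptor, overlapped between groups at 259, 260, 319 and 223 CPM. Relb, a transcription factor of the pathway, was higher in both tdTomato+ libraries at 82.3 and 80.7 CPM against 71.1 and 57.4 CPM, with a small difference (log2 fold change 0.34, SE 0.18, edgeR adjusted p = 0.713). Its partner Nfkb2 overlapped between groups at 181, 131, 135 and 89.3 CPM. Among the other homeostatic chemokines and receptors 0 of 9 tested passed, and Cxcl12, the most abundant of them, gave 688, 895, 864 and 929 CPM.

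**Figure D3:**
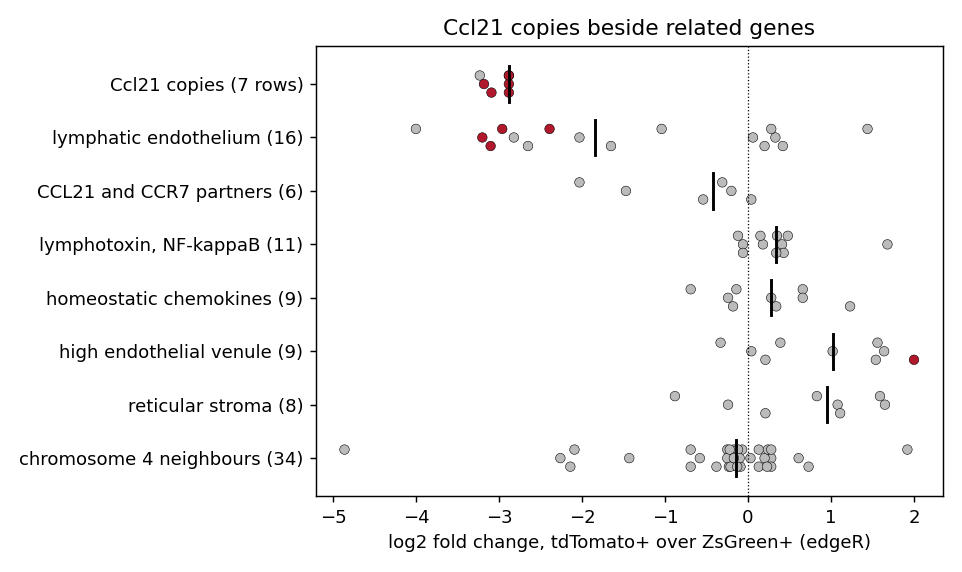
Log2 fold change of tdTomato+ over ZsGreen+ for each tested gene, by list. Red points passed the edgeR threshold, black bars are medians, and the copies, picked on this contrast, lie between -3.23 and -2.88 while the neighbours on chromosome 4 or its scaffolds have a median of -0.15.

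Ccr7, in contrast, separated the libraries by replicate number. It had 190 and 54 counts in tdTomato+ 1 and 2 and 135 and 34 counts in ZsGreen+ 1 and 2, or 10.5, 2.84, 8.54 and 1.86 CPM. Replicate 1 was higher in both groups, by 3.69-fold in tdTomato+ and 4.59-fold in ZsGreen+ cells, and the groups overlapped. The log2 fold change was 0.36 (SE 0.82), and without 1 library it ranged from -0.87 to 1.84. By TPM it stood at 9.52, 2.45, 6.26 and 1.62, below each of the 7 member Ccl21 copies in each library.

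Most genes of the leukocyte lists and of the high endothelial venule list had higher values in replicate 1 too. Over all genes tested 3824, 29%, were higher in replicate 1 of both groups. The count was 5 of 5 for the B cell list, 10 of 12 for the dendritic cell list, 6 of 11 for the T cell list and 6 of 8 for the macrophage list. It was 9 of 12 for the high endothelial venule list, but 2 of 10 for the endothelial identity list and 3 of 16 for the lymphatic list. The B cell list summed to 21.7, 9.35, 14.9 and 1.81 CPM in tdTomato+ 1 and 2 and ZsGreen+ 1 and 2, the T cell list to 40.2, 48.6, 48.2 and 57.5 CPM and the dendritic cell list to 615, 593, 688 and 614 CPM. None of these genes was at 0 in all libraries. Much of the T cell and dendritic cell sums came from Tcf7, Cd247, Fscn1 and Zbtb46, of which Fscn1 was among the 10, at 401 and 384 CPM in tdTomato+ 1 and 2 and 520 and 463 CPM in ZsGreen+ 1 and 2.

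Several genes that mark these cells more closely had the order of Ccr7. Cd79a, part of the B cell receptor, stood at 5.94 and 1.42 CPM in tdTomato+ 1 and 2 and at 6.39 and 0.712 CPM in ZsGreen+ 1 and 2. Cd3e, part of the T cell receptor complex, stood at 2.7 and 0.683 CPM against 2.02 and 0.0548 CPM. Ccl17 and Ccl22, chemokines of mature dendritic cells, gave 4.68 and 0.0525 against 5.88 and 0.11 CPM, and 2.15 and 0.368 against 1.65 and 0.767 CPM. In these 4 genes both replicate 1 libraries lay above both replicate 2 libraries, as for Ccr7. How many of all genes tested share this stricter order was not counted. Cd3d, another part of the T cell receptor complex, did not have that order, at 0.165 and 0.42 against 0.253 and 0.329 CPM, nor did the B cell gene Cd22. Which cells the Ccr7 reads came from was not tested.

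**Figure D4:**
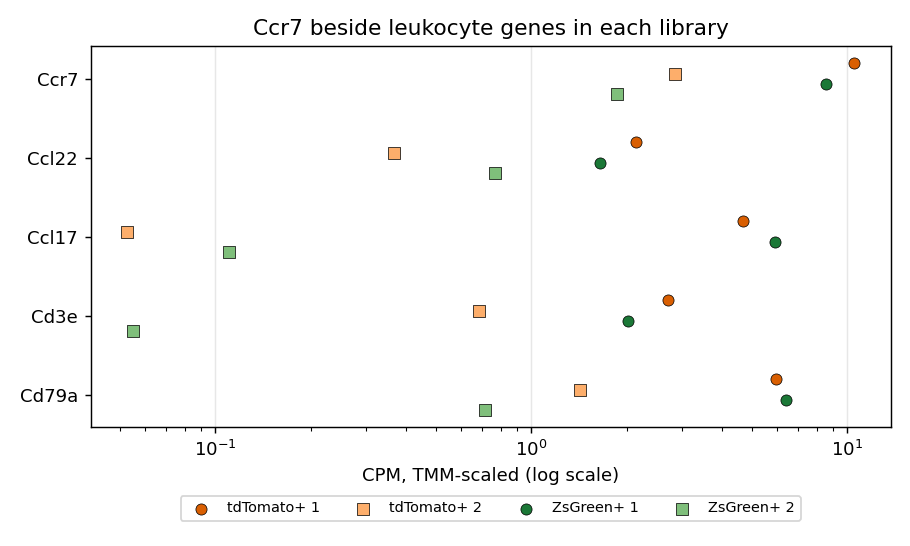
CPM (TMM-scaled, log axis) of Ccr7 and 4 leukocyte genes, with 1 point per library. Circles (replicate 1) lie to the right of squares (replicate 2) for each gene, with Ccr7 at 10.5 and 8.54 CPM in replicate 1 and at 2.84 and 1.86 CPM in replicate 2.

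The genes whose levels moved most like the Ccl21 sum were sought among the 10352 genes averaging 5 CPM or more, by the distance between log2 CPM values centred over the 4 libraries. For the Ccl21 sum, with 4 libraries in 2 groups, this ranks mainly the size of the group difference. The nearest were Reln (distance 0.23), Thy1 (0.39), Xpnpep2 (0.59), Mmrn1 (0.67) and Fxyd6 (0.79), of which 4 are on the lymphatic list. Xpnpep2, a membrane aminopeptidase, stood at 2.53 and 2.94 CPM in tdTomato+ 1 and 2 and at 17.3 and 20.1 CPM in ZsGreen+ 1 and 2. Like the Ccl21 sum, each of these nearest genes was higher in ZsGreen+ 2 than in ZsGreen+ 1, and nearness to that sum was how they were picked. Other lymphatic genes ranked lower, with Tbx1 at 10, Pdpn at 29, Ackr2 at 30, Prox1 at 36, Flt4 at 104 and Lyve1 at 8768.

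For Ccr7 the nearest genes were Bcr (0.27), Rgs1 (0.47), Kcnk5 (0.56), Fam20c (0.6) and LOC100862473 (0.6). Bcr, a signalling protein gene named for its part in a leukaemia fusion, gave 597 and 214 CPM in tdTomato+ 1 and 2 and 578 and 124 CPM in ZsGreen+ 1 and 2. Rgs1, a regulator of G protein signalling in lymphocytes, gave 12.7 and 3.78 against 7.72 and 2.57 CPM. In all 5 genes both replicate 1 libraries were higher than both replicate 2 libraries. They were picked for nearness to the values of Ccr7, which have this order, so the order follows from the choice.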

How the data were processed

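RNA was amplified from small inputs before library construction, per the labels' protocols. The authors deposited, per the file headers, read counts that are not whole (estimated counts), a normalized read count (a signal, not used), FPKM and TPM for each library. Submitters' processing notes name RSEM 1.3.1, DESeq2 1.4.5, mm10 and GRCm38. RSEM divides reads that fit several genes among them, which sets the values of near-identical copies.

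Estimated counts were rounded and tested with edgeR 4.0.16 (R 4.3.3), quasi-likelihood F-test, two-sided, TMM, filterByExpr with a minimum count of 10, and Benjamini-Hochberg adjustment over 13177 genes at 0.05. TPM and FPKM are as the authors deposited them. CPM uses TMM-scaled library sizes. Groups come from the sample titles. The 8 members, 12 gene lists (124 genes, 122 in the table, after 1 B cell gene that is not reported here was left out; Ccl21a and Trac were not among the rows analysed here) and tests were chosen with earlier results of these data known. Named genes are the members, neighbours at 1 CPM or more, and genes of each list past the threshold. Up to 4 more of smallest p were added per list. All genes listed as CCL21 and CCR7 partners and the 5 genes most like the Ccl21 sum and Ccr7 are named too. Acta2, Foxc2, Nrp2, Ptx3, LOC115489962, Pecam1, Cdh5, Prox1, Lyve1, Sox18, Ltbr, Glycam1, Chst4, Madcam1, Zbtb46, Cd3d, Ccl17, Ccl22 and LOC100041593 fall outside that rule and were added after their values were seen. Scripts were tested on simulated data. Of 12 chromosome 4 rows with spans over 1 Mb, positions came from RefSeq where given, and 1 was left out. As alternatives served DESeq2 1.42.0, RLE or upper quartile scaling, limma 3.58.1 (voom, or trend on log2 FPKM plus 1 or 0.1), other filters, a replicate block, leaving out each library, the copies as 1 row, and, chosen after seeing the data, LOC100041593 in the sum and TPM shares.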

Additional observations from a re-analysis of the deposited data

How the results depend on the processing

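Calls depended on the processing while the direction of the Ccl21 copies did not. The log2 ratio of the summed copies, -3.15, ranged from -3.49 to -2.7 without 1 library. Against 40 calls over all genes, DESeq2 gave 330, no filter on low counts 128, and log2 of FPKM plus 1 gave 26. Leaving out 1 library gave 4 (without tdTomato+ 2), 17 (without tdTomato+ 1), 26 (without ZsGreen+ 2) and 304 (without ZsGreen+ 1). With the copies entered as 1 row 19 genes were called. Of 34 calls outside the members 16 were lost, at adjusted p from 0.0562 to 0.0704. Against 5 calls among the related genes, upper quartile factors, limma-voom and both FPKM fits gave 3 each, DESeq2 18, no filter 13, the copies as 1 row 2, and leaving out 1 library 0 (tdTomato+ 2) to 23 (ZsGreen+ 1). Of the neighbours edgeR called 0 and DESeq2 called 1. The share of Gm1987 differed between group means by -1.63 percentage points, and by -4.76 to 1.51 without 1 library.

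Replicate numbers in the titles are not said to pair libraries. Deviations of same-numbered libraries correlated at 0.455 over 13177 genes with 2 pairs only. With a replicate block 934 genes were called (679 higher, 255 lower in tdTomato+ cells), 35 of the related genes and 3 of the neighbours. With 2 libraries per group and no molecular identifiers, genes of few counts such as Ccl19 and LOC100041593 carry large errors.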
